A study of Mus musculus with 6 samples.

Results

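The matrix metalloproteinase (MMP) genes considered here were Mmp2, Mmp3, Mmp9, Mmp11, Mmp12, Mmp14, Mmp15, Mmp17, Mmp19 and Mmp24, 10 of the 15663 genes listed in RNA-seq tables of mouse retinal pigment epithelium (RPE) and choroid. The members were chosen by symbol and matched to the Ensembl gene identifiers of the tables, and all 10 were found. They were measured in 3 control and 3 subretinal fibrosis (SRF) libraries, each labelled as a separate C57BL/6 mouse sample, and the study used C57BL/6J male mice aged 8 to 10 weeks. Control mice were untreated, and SRF mice received 4 laser burns in each eye and a second burn on each lesion 10 days later, with RNA taken from the RPE-choroid 20 days after the second laser. The labels name no transgene or deletion in either group, and the sources used here do not say whether both eyes of a mouse were pooled. The laser lesions cover part of the tissue, so each SRF library can hold lesion and non-lesion RPE-choroid together.

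MMPs are secreted or membrane-bound endopeptidases that hold a zinc ion in the active site and cleave extracellular matrix proteins, growth factors and other proteases. They are made as inactive proenzymes, are switched on when the propeptide is removed, and are blocked by the tissue inhibitors of metalloproteinases (TIMPs). In the RPE-choroid they act on Bruch's membrane, the layered sheet of elastin, collagen and basement membrane between the RPE and the choroidal capillaries. The secreted members are the gelatinases Mmp2 and Mmp9, the stromelysin Mmp3, the macrophage elastase Mmp12, and Mmp11 and Mmp19. Mmp14, Mmp15 and Mmp24 have a transmembrane segment, and Mmp17 is held at the membrane by a lipid (GPI) anchor.

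The active site is a sequence feature that all 10 genes share. The longest coding transcript of each gene in GENCODE M21 (GRCm38) was translated, and the zinc-binding motif of histidine, glutamate and 2 further histidines was found at 1 place in each, within 1 exon. The 33 coding bases are shown because this stretch encodes the active site. The codons of the 3 zinc-binding histidines and the catalytic glutamate are in capitals.
Mmp2 (chr8:92839279-92839311, forward strand, exon 8): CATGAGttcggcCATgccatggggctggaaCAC
Mmp3 (chr9:7449775-7449807, forward strand, exon 5): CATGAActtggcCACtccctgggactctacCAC
Mmp9 (chr2:164951133-164951165, forward strand, exon 8): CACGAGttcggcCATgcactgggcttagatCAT
Mmp11 (chr10:75926931-75926963, reverse strand, exon 5): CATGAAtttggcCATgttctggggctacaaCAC
Mmp12 (chr9:7352914-7352946, forward strand, exon 5): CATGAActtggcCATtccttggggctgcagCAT
Mmp14 (chr14:54437627-54437659, forward strand, exon 5): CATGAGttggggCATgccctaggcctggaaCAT
Mmp15 (chr8:95368585-95368617, forward strand, exon 5): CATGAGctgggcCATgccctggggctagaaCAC
Mmp17 (chr5:129596597-129596629, forward strand, exon 5): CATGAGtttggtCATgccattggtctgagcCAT
Mmp19 (chr10:128795673-128795705, forward strand, exon 5): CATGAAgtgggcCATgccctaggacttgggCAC
Mmp24 (chr2:155807427-155807459, forward strand, exon 5): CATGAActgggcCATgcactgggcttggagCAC
Mmp12 and Mmp3 lie in the same direction in the MMP gene cluster of chromosome 9, and their active sites shared 26 of the 33 bases. The lowest number shared with Mmp12 was 21, in Mmp9.

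Promoter windows of 250 bases before to 50 bases after the RefSeq transcript start (GRCm38.p6) were on hand for 6 of the 10 genes, Mmp3, Mmp11, Mmp12, Mmp14, Mmp15 and Mmp24. Mmp12 had a window at each of its 2 RefSeq starts. Letters searched on both strands were the AP-1 motif TGANTCA, the ETS-type motif AGGAAG, the TATA motif TATAAA and the GC box GGGCGG. The windows of Mmp12 at its downstream start and of Mmp3 are shown, without the last 30 bases, because they were the windows of members that held the AP-1 letters, and each match is in capitals.
Mmp12 (chr9:7347124-7347393, forward strand): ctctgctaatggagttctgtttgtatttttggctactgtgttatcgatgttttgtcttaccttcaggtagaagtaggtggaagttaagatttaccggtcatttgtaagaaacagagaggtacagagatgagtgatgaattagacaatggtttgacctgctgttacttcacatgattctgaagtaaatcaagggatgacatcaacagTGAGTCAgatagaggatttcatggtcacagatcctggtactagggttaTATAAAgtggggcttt
Mmp3 (chr9:7445572-7445841, forward strand): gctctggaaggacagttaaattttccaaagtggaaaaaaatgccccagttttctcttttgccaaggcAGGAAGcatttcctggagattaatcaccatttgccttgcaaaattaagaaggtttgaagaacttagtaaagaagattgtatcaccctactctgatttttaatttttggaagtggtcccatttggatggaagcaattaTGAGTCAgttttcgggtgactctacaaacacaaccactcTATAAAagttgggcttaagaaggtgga
In the Mmp12 window the AP-1 letters began 44 bases before the start, and in the Mmp3 window 46 bases before it, in both cases followed by the TATA letters. The TATA letters began after the start in the Mmp12 window, at base 5 of the transcript, and 7 bases before the start in the Mmp3 window. AP-1 letters were found in 7.81% of all 32851 windows of this length and TATA letters in 13.6%. The Mmp3 window also held the ETS-type letters, which 35.4% of all windows had, as did the Mmp14 window and the upstream Mmp12 window. The windows of Mmp11, Mmp14, Mmp15 and Mmp24 held GC boxes, which 35.7% of all windows had, and no AP-1 or TATA letters. A match of letters describes the window and is not evidence of binding.

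Deposited counts on genes summed to between 13667310 and 24356023 per library. RPE identity was clear in the data, since the 8 RPE markers (Rpe65, Rlbp1, Best1, Ttr, Lrat, Rgr, Rdh5 and Mitf) summed to 42718 to 50658 CPM (counts scaled to a common library size) in control and 28317 to 37730 in SRF libraries. Control 1 and SRF 3 stood apart from the other libraries, with 12561 and 12002 CPM over 12 photoreceptor markers against 657 to 1666 in the other 4. The fold change without these 2 libraries is given beside a gene where it differs from the value on all 6 by over 1.5 times or in sign, and for Mmp12 and Mmp9. The samples are bulk tissue, so fewer cells of a type and less RNA per cell cannot be told apart.

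The length-scaled levels (FPKM, fragments scaled by transcript length and by library size) of the 10 genes ran from 0.10, for Mmp24 in SRF 2, to 337, for Mmp3 in SRF 3. In control libraries the order by mean was Mmp3, Mmp14, Mmp2, Mmp12, Mmp11, Mmp19, Mmp15, Mmp9, Mmp17 and Mmp24. The control ranges of Mmp3, Mmp14 and Mmp2 overlapped each other in this order, as did those of Mmp9 and Mmp17 and of Mmp17 and Mmp24, and the other neighbours did not overlap. In SRF libraries Mmp12 and Mmp2 changed places, at mean FPKM of 57.8 ± 4.54 and 57.2 ± 10.7 (SD, n = 3 each), and these 2 overlapped. Mmp12 took 2.92% to 6.66% of the summed FPKM of the 10 genes in control libraries and 11.7% to 21.4% in SRF libraries, without overlap. Mmp3 took the widest range, from 24.8% in control 1 to 67.7% in control 3.

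**Figure D1:**
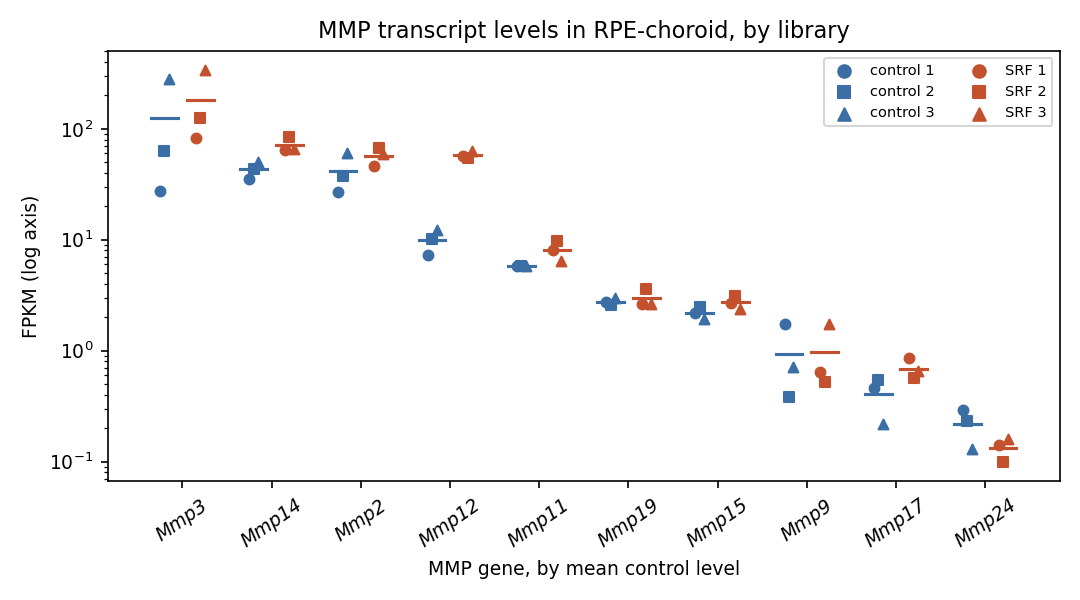
FPKM of each of the 10 MMP genes in the 6 libraries on a log axis, with genes ordered by their mean control level, controls in blue, SRF in orange, a marker shape for each library and a line at each group's mean. The 3 SRF points of Mmp12 lie between 54.0 and 62.8, all above the control points at 7.33 to 12.2, and the points of Mmp3 spread widely in both groups.

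Of the 10 members, 9 passed the count filter (over 50 counts in 2 or more libraries) and entered edgeR's quasi-likelihood test of SRF against control, which covered 13454 genes. Calls needed an adjusted p under 0.05 together with an absolute log2 fold change of 0.5 or more. By edgeR 0 of the 9 members were called, against 0 of all tested genes (0%). At an unadjusted p under 0.05, edgeR had 943 genes, and 2 of the 9 members (Mmp12 and Mmp14) were among the 560 that were higher in SRF (4.16% of tested genes). DESeq2 on the same counts called 2 of the 9 members, again Mmp12 and Mmp14, against 153 of all tested genes (1.14%). Every SRF library was above every control library in CPM for 3 of the 9 members (Mmp11, Mmp12 and Mmp14), against 903 of all tested genes (6.71%). The fitted log2 fold changes of the 9 were all above 0 with a median of 0.42, where 50.3% of all tested genes were above 0 with a median of 0.0012. That direction turned for Mmp3, Mmp9 and Mmp19 when single libraries were left out.

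**Figure D2:**
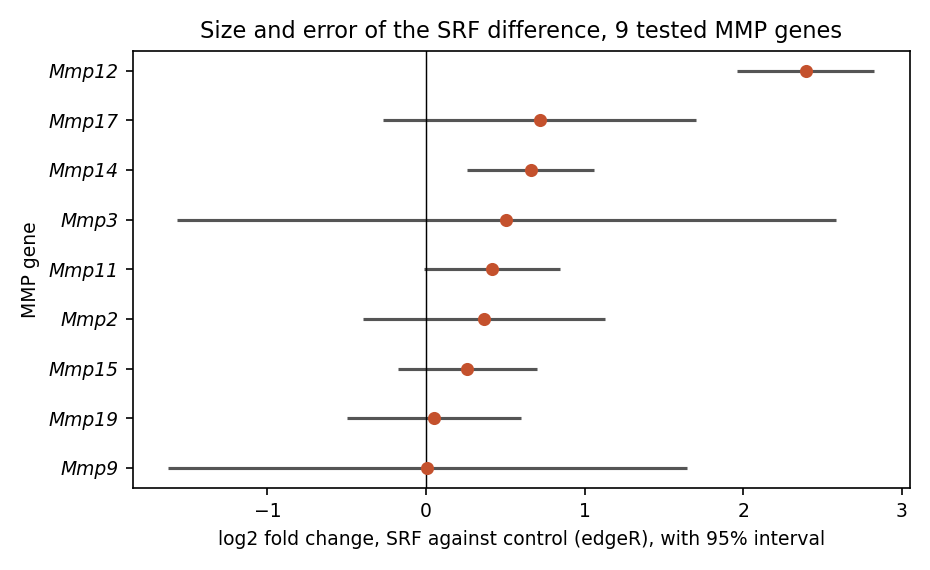
Log2 fold change of the 9 tested MMP genes, SRF against control, from edgeR's quasi-likelihood fit, with a point for the estimate and a line for its 95% interval. The intervals of Mmp12 (1.96 to 2.83) and Mmp14 (0.26 to 1.06) lie above 0, and those of Mmp3 and Mmp9 are the widest.

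Mmp12 (ENSMUSG00000049723, chromosome 9 of GRCm38, 7344381 to 7369499, forward strand, 11 merged exons) encodes macrophage elastase, which degrades elastin and is made mainly by macrophages. Its counts were 178, 356 and 481 in control 1, 2 and 3, and 1714, 1545 and 1759 in SRF 1, 2 and 3. The FPKM values were 7.33, 10.2 and 12.2 in control and 56.5, 54.0 and 62.8 in SRF. The lowest SRF library was thus well above the highest control library, and the 3 SRF libraries lay close to each other. The study's own qRT-PCR bore out the higher level of Mmp12 in SRF, and those of Chil1, Aplnr, Lyz2 and Cd68, named below.

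Mean Mmp12 CPM was 17.5 ± 3.73 in control and 92.2 ± 6.24 in SRF (SD, n = 3 each), a 5.27-fold difference of the means. The relative spread was 21.3% of the mean in control and 6.76% in SRF, the smallest SRF spread of the 10 genes. The log2 fold change by edgeR was 2.39 with a standard error (SE) of 0.18 and an adjusted p of 0.0504, just over the threshold, and DESeq2 gave 2.38 with an adjusted p of 5.14e-27. On log2(FPKM + 0.1) the two-sided exact permutation p was 0.1, which is the lowest value this design of 3 against 3 libraries can reach. Without control 1 and SRF 3 the edgeR log2 fold change was 2.18 with an adjusted p of 0.000586. Over single libraries left out, the edgeR fold change lay between 2.23 and 2.50 and its adjusted p ranged from 0.0226 (without control 1) to 0.484 (without control 2). In GENCODE, 157 exon bases of Mmp12 overlap Mmp1b on the opposite strand, a gene the tables do not list, and the strandedness of the counting was not stated.

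Mmp12 was compared with 12 macrophage markers because it is a macrophage product. Of the 12, edgeR called 0 and DESeq2 called 2, where DESeq2 called 1.14% of all tested genes. The median log2 fold change was 0.34, and 8 overlapped between groups in CPM. The 12 markers (Adgre1, Cd68, Csf1r, Aif1, Cd14, Fcgr1, Itgam, Mrc1, Cd163, Lyz2, C1qa and Mertk) summed to 1150 to 1504 CPM in control and 2686 to 3987 CPM in SRF libraries. Most of this sum was Lyz2, and the other 11 summed to 408 to 502 CPM in control and 584 to 690 CPM in SRF, still without overlap. The 4 markers without overlap, all higher in SRF, were Cd68, Cd14, Lyz2 and C1qa, against 6.71% of all tested genes, and none of the 12 was at 0. Csf1r, the receptor for colony stimulating factor 1, had a CPM fold of 0.982, and Mertk, an engulfment receptor that RPE cells also use, a fold of 0.929. The largest fold among the markers was 2.81, in Lyz2, which encodes lysozyme.

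Set against the mean log2 CPM of the 12 markers in the same library, Mmp12 stood at -0.97, -0.87 and -0.76 in control 1, 2 and 3. In SRF 1, 2 and 3 it stood at 1.24, 0.76 and 1.20 on the same log2 scale. No SRF library came near a control library, and the group difference was 1.94 (two-sided exact permutation p of 0.1, again the lowest that can be reached). Without Lyz2, Cd68 and C1qa the difference was 2.13. These 3 markers were among those with the largest folds (2.81, 2.06 and 1.65), so leaving them out raises the difference. Against single markers it ran from 0.94 (Lyz2) to 2.54 (Mertk), with an exact permutation p of 0.1 in each case. The Mmp12 difference was thus larger than that of the marker level in the same libraries, and the part of a changed cell number in it was not tested.

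**Figure D3:**
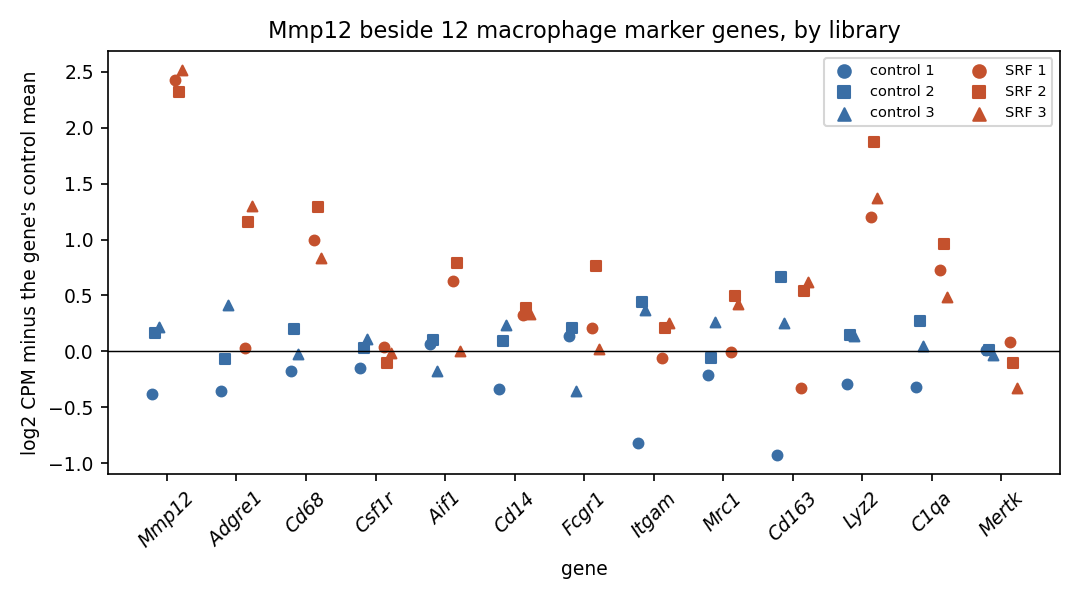
Log2 CPM of Mmp12 and of 12 macrophage marker genes in each library, drawn as the difference from the gene's own control mean, with controls in blue, SRF in orange and a marker shape for each library. The SRF points of Mmp12 sit above those of each of the 12 markers, of which Lyz2 comes nearest and Csf1r and Mertk lie around 0.

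The 5 tested genes whose centred log2 CPM profile over the 6 libraries was nearest to that of Mmp12, by root mean square difference, were Madcam1 (0.29), Atp6v0d2 (0.33), Il7r (0.40), Chil1 (0.41) and Aplnr (0.47). The profile of Mmp12 itself had a root mean square of 1.23 around its own mean. Chil1, a chitinase-like secreted protein, had the highest counts of the 5, at 506, 659 and 1140 CPM in control and 2278, 2510 and 2562 CPM in SRF. Atp6v0d2, a proton pump subunit, was at 5.27, 10.2 and 9.53 CPM in control and 24.0, 35.1 and 34.8 CPM in SRF. Madcam1, an adhesion molecule for leukocytes, stayed between 0.541 and 3.63 CPM, so that its profile rests on few counts.

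Mmp14 (ENSMUSG00000000957, chromosome 14, 54431612 to 54445364, forward strand) encodes a membrane-bound collagenase that activates pro-MMP2 at the cell surface, with TIMP2 as adaptor. Its counts were 1261, 2116 and 3172 in control and 3037, 3770 and 2946 in SRF libraries 1, 2 and 3. Its FPKM values were 35.5, 43.1 and 50.3 in control and 64.9, 84.0 and 65.7 in SRF. The raw counts of the groups overlapped because the control libraries differed in depth, and after scaling to depth every SRF library was above every control library.

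Mean Mmp14 CPM was 113 ± 19.2 in control and 179 ± 26.1 in SRF (SD, n = 3 each), a 1.58-fold difference. The log2 fold change was 0.66 (SE 0.17) with an adjusted p of 0.410 by edgeR, and DESeq2 gave 0.65 with an adjusted p of 0.0498. The DESeq2 call was lost without control 1, control 2, SRF 1 or SRF 2, with adjusted p-values of 0.131, 0.360, 0.0863 and 0.682. The edgeR fold change stayed between 0.53 and 0.78 over the single libraries left out. Against the mean of 8 fibroblast markers in the same library, Mmp14 lay at -0.63 to -0.11 in control and -0.29 to 0.24 in SRF on the log2 scale, and the groups overlapped.

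Mmp2 (ENSMUSG00000031740, chromosome 8, 92827291 to 92853420) encodes gelatinase A, a product of fibroblasts and other stromal cells that cuts denatured collagen and collagen IV. Its FPKM values were 26.8, 37.7 and 60.2 in control 1, 2 and 3, and 45.8, 67.0 and 58.8 in SRF 1, 2 and 3. Control 3 lay above 2 of the 3 SRF libraries, so the groups overlapped. The CPM means were 120 ± 51.0 and 155 ± 34.7, and the log2 fold change was 0.37 (SE 0.32, 95% interval -0.40 to 1.13, edgeR adjusted p 0.950). Without control 1 and SRF 3 it was 0.04.

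The level of Mmp2 moved with that of the fibroblast markers Pdgfra, Dcn, Lum, Col1a1, Col1a2, Dpt, Pi16 and Dpep1, whose mean log2 CPM was 6.66, 7.08 and 7.67 in control and 7.12, 7.81 and 7.66 in SRF. Log2 Mmp2 minus this level was -0.45, -0.26 and -0.22 in control and -0.26, -0.32 and -0.24 in SRF. The group means of that difference were -0.31 ± 0.12 and -0.27 ± 0.04 (SD, n = 3 each), so that Mmp2 and the stromal markers kept nearly the same distance in all libraries. This comparison was chosen after the values were seen and was not tested.

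Mmp3 (ENSMUSG00000043613, chromosome 9, 7445822 to 7455975) encodes stromelysin 1, which cleaves many matrix proteins and activates other pro-MMPs. It had the highest mean FPKM of the 10 genes and the widest spread, with 27.3, 63.2 and 282 in control 1, 2 and 3 and 82.3, 126 and 337 in SRF 1, 2 and 3. Control 3 and SRF 3 were the 2 high libraries, 1 in each group, and the highest control count was 12362 against 671 in the lowest. The range was 10.3-fold within the control group and 4.11-fold within the SRF group in CPM, both larger than the 1.42-fold difference of the group means.

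For Mmp3 the log2 fold change was 0.51 (SE 0.88) with a 95% interval of -1.57 to 2.58 and an edgeR adjusted p of 1.0. It was -0.31 without SRF 3, 1.96 without control 3 and -0.78 without control 1 and SRF 3, so these libraries set its direction. With this interval neither a large increase nor a large decrease could be seen or set aside at this number of samples. The genes nearest to Mmp3 in profile, looked up after its values were seen, were 1500015O10Rik (0.24), Sfrp2 (0.37), Col12a1 (0.42), Chad (0.46) and Omd (0.46), by the root mean square measure used for Mmp12. Sfrp2 is a secreted Wnt modulator, and Col12a1, Chad and Omd are matrix genes of dense connective tissue. That these genes were also highest in control 3 and SRF 3 within their groups follows from their choice by profile. The 8 fibroblast markers gave both orders, since their mean log2 CPM was highest in SRF 2 and their summed CPM, of 4090, 5296 and 9841 in control and 6250, 8709 and 10742 in SRF, was highest in SRF 3 and control 3, as for Mmp3. Their part in the Mmp3 values was not tested.

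Mmp9 (ENSMUSG00000017737, chromosome 2, 164940780 to 164955850) encodes gelatinase B, known from neutrophils, macrophages and neurons. It was low, with counts of 75, 23 and 55 in control and 37, 29 and 98 in SRF. The FPKM values were 1.73, 0.38 and 0.71 in control and 0.64, 0.52 and 1.74 in SRF, and control 1 and SRF 3 were the high libraries. These were the 2 libraries with the highest photoreceptor markers, at a mean log2 CPM of 8.35 and 8.34 against 4.29 to 5.60 in the other 4. Among those 4, control 2 had the highest photoreceptor level (5.60) and the lowest Mmp9 FPKM (0.38). Of 8 neutrophil markers 5 were listed, and 2 passed the count filter. The 5 summed to 6.69 to 10.7 CPM in control and 11.8 to 12.4 CPM in SRF libraries. Their mean log2 CPM overlapped between groups, at 0.09 to 0.39 in control and -0.02 to 0.72 in SRF, and 0 of the 5 were higher in SRF without overlap. The part of either cell type in the Mmp9 values was not tested.

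The group means of Mmp9 were 3.04 ± 2.26 and 3.03 ± 2.13 CPM, with a log2 fold change of 0.01 (SE 0.69, 95% interval -1.63 to 1.64, edgeR adjusted p 1.0). It was 0.01 without control 1 and SRF 3, and between -0.73 and 0.77 over the single libraries left out.

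**Figure D4:**
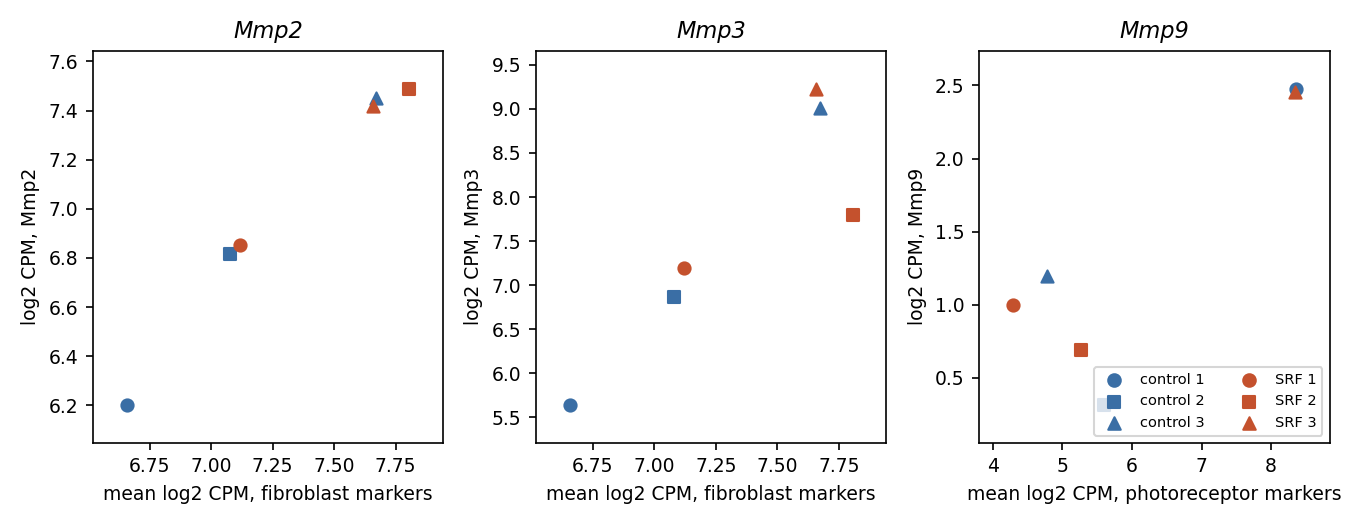
Log2 CPM of Mmp2 and Mmp3 against the mean log2 CPM of 8 fibroblast markers, and of Mmp9 against that of 12 photoreceptor markers, with a point for each of the 6 libraries (control blue, SRF orange). Mmp2 follows the fibroblast level, Mmp3 is highest in control 3 and SRF 3, and Mmp9 is highest in control 1 and SRF 3.

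Mmp11 (ENSMUSG00000000901, chromosome 10, 75923222 to 75936496, reverse strand) encodes stromelysin 3, a stromal MMP that is activated inside the cell by furin. Its FPKM was 5.77, 5.77 and 5.78 in control and 8.07, 9.74 and 6.42 in SRF 1, 2 and 3. The 3 control libraries were nearly equal and every SRF library was above them, SRF 3 by the smallest distance. The CPM means were 13.2 ± 0.136 and 17.6 ± 3.46 (SD, n = 3 each), with a log2 fold change of 0.42 (SE 0.18, 95% interval -0.01 to 0.84, edgeR adjusted p 0.733). Mmp11 shares 155 exon bases with Chchd10 on the opposite strand, which is listed in the tables, so reads of the pair may be mixed.

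Mmp19 (ENSMUSG00000025355, chromosome 10, 128790910 to 128800824) encodes a widely expressed MMP that acts on basement membrane proteins. Its FPKM was 2.75, 2.57 and 2.97 in control and 2.66, 3.59 and 2.65 in SRF, with SRF 2 above the other 5 libraries. The log2 fold change was 0.05 (SE 0.23, 95% interval -0.50 to 0.60, edgeR adjusted p 1.0), and it was -0.17 without SRF 2 and 0.22 without control 1 and SRF 3. The gene shares 789 exon bases with Tmem198b on the opposite strand.

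Mmp15 (ENSMUSG00000031790, chromosome 8, 95352268 to 95375080) encodes a relative of the Mmp14 protease. Its FPKM was 2.18, 2.48 and 1.93 in control and 2.69, 3.12 and 2.37 in SRF, where SRF 3 lay below control 2. The log2 fold change was 0.26 (SE 0.18, 95% interval -0.17 to 0.70, edgeR adjusted p 0.917).

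Mmp17 (ENSMUSG00000029436, chromosome 5, 129584169 to 129611099) encodes the GPI-anchored member. It had 40, 66 and 34 counts in control and 99, 64 and 74 in SRF, for FPKM values of 0.46, 0.54 and 0.22 against 0.85, 0.57 and 0.65. The groups did not overlap in FPKM and overlapped in CPM, where SRF 2 (3.56) lay just under control 2 (3.57). The log2 fold change of 0.72 (SE 0.42, 95% interval -0.27 to 1.70, edgeR adjusted p 0.854) had a wide error at these counts.

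Mmp24 (ENSMUSG00000027612, chromosome 2, 155775342 to 155818366) encodes a membrane-type MMP known from the nervous system. It had 8 to 18 counts per library and did not reach the count minimum. Its FPKM was 0.29, 0.23 and 0.13 in control and 0.14, 0.10 and 0.16 in SRF, with overlap. Tested without a filter on low counts, its log2 fold change was -0.68 (SE 0.47, edgeR adjusted p 0.923), and its mean CPM in SRF was 0.615 times that in control. It shares 637 exon bases with the listed gene BC029722 on the opposite strand, so its few reads are uncertain.

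Of 13 other MMP family genes, 7 were listed (Mmp8, Mmp13, Mmp16, Mmp23, Mmp25, Mmp27 and Mmp28), and 2 of these were tested. Mmp23, a small membrane-linked MMP, had FPKM values of 3.42, 6.65 and 10.2 in control and 9.92, 12.5 and 12.3 in SRF, with a log2 fold change of 0.72 (SE 0.37, edgeR adjusted p 0.804), or 0.35 without control 1 and SRF 3. Mmp16, a membrane-type MMP, had 5.88, 5.82 and 4.53 in control and 5.78, 5.27 and 4.91 in SRF, with a log2 fold change of -0.11 (SE 0.17, edgeR adjusted p 1.0), or 0.0066 without control 1 and SRF 3. The collagenases Mmp8 and Mmp13, neighbours of Mmp12 on chromosome 9, had 2 to 21 and 11 to 16 counts per library. Mmp25, known from neutrophils, had 20, 27 and 33 counts in control and 16, 14 and 9 in SRF, and Mmp27 and Mmp28 had 5 to 32 counts. Mmp1a, Mmp1b, Mmp7, Mmp10, Mmp20 and Mmp21 were not listed. Within the chromosome 9 cluster, Mmp12 and Mmp3 were thus the 2 genes with more than 50 counts in each library.

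The inhibitors were examined beside the proteases. Of 6 tested inhibitors (Timp1, Timp2, Timp3, Timp4, Reck and A2m), 4 had a log2 fold change above 0, with a median of 0.34, and DESeq2 called Timp2. Over all tested genes 50.3% were above 0, and DESeq2 called 1.14%. Timp2 FPKM was 135, 117 and 136 in control and 308, 334 and 330 in SRF, with a log2 fold change of 1.24 (SE 0.12, edgeR adjusted p 0.106). The study's own qRT-PCR did not bear out the Timp2 difference. Timp1 was at 6.36, 7.89 and 9.07 against 15.6, 15.8 and 13.6, with a log2 fold change of 0.89 (SE 0.21, edgeR adjusted p 0.359). Timp4 was at 2.89, 3.25 and 1.74 against 1.74, 1.86 and 1.28, where control 3 lay below SRF 2, with a log2 fold change of -0.74 (SE 0.21, edgeR adjusted p 0.434). All 3 sets of values are FPKM.

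The ratio of the summed FPKM of the 10 MMP genes to that of Timp1, Timp2, Timp3 and Timp4 was 0.0804, 0.107 and 0.233 in control 1, 2 and 3 and 0.176, 0.227 and 0.315 in SRF 1, 2 and 3. The means were 0.140 ± 0.0814 and 0.239 ± 0.0706 (SD, n = 3 each), and control 3 lay above 2 SRF libraries, so the groups overlapped. Timp3 made up most of the TIMP sum, and Mmp3 between 24.8% and 67.7% of the MMP sum. Mmp12 over Timp1 was 1.15, 1.29 and 1.34 in control and 3.62, 3.41 and 4.61 in SRF, without overlap. Mmp14 over Timp2, in contrast, was 0.262, 0.370 and 0.370 in control and 0.210, 0.251 and 0.199 in SRF, lower in every SRF library. These ratios of FPKM values are a description, with no test, and the Timp2 difference was not borne out by the study's qRT-PCR.

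Of a list of 11 proteases that activate pro-MMPs, 8 were tested. All 8 had log2 fold changes above 0 with a median of 0.37, where 50.3% of all tested genes were above 0. DESeq2 called 2 of them (1.14% of all tested genes were called), Tpsb2 at 1.32 (SE 0.24, edgeR adjusted p 0.237) and Cma1 at 1.27 (SE 0.31, edgeR adjusted p 0.380), and Mcpt4 was at 1.40 (SE 0.45, edgeR adjusted p 0.533). These 3 encode tryptase and chymases of mast cells. The 5 listed mast cell markers, which include them, summed to 39.1 to 44.7 CPM in control and 61.7 to 70.5 CPM in SRF, and 4 of the 5 were higher in SRF without overlap, against 6.71% of all tested genes.

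Among receptors and regulators of plasminogen and MMPs, 8 of 9 tested genes were above 0, with a median of 0.21. Over all tested genes 50.3% were above 0, and DESeq2 called 1.14%. DESeq2 called Thbs1, which encodes the matricellular thrombospondin 1, at a log2 fold change of 0.99 (SE 0.29, edgeR adjusted p 0.465), or 0.64 without control 1 and SRF 3. It also called Serpine2, a serine protease inhibitor, at 0.67 (SE 0.16, edgeR adjusted p 0.374). Lgmn, the lysosomal protease legumain that can activate pro-MMP2, was at 0.43 (SE 0.14, edgeR adjusted p 0.539).

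The substrates of Mmp12 and its relatives, together with the cross-linking enzymes Lox and Loxl1, were compared in 3 lists. Of 19 tested elastic fibre genes, 17 had log2 fold changes above 0, with a median of 0.29, and DESeq2 called 0. The shares over all tested genes were 50.3% above 0 and 1.14% called by DESeq2. Lox, which cross-links elastin and collagen, was at 1.33 (SE 0.42, edgeR adjusted p 0.521) and at 0.78 without control 1 and SRF 3, elastin itself (Eln) at 0.86 (SE 0.32, edgeR adjusted p 0.636) and Loxl1, also a cross-linking enzyme, at 0.60 (SE 0.20, edgeR adjusted p 0.539). Eln FPKM was 9.10, 14.0 and 8.85 in control and 23.0, 25.5 and 11.5 in SRF, where SRF 3 lay below control 2.

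All 8 fibrillar collagen genes were above 0, with a median of 0.54, and DESeq2 called 0 of them. The 8 fibroblast markers, which share Col1a1 and Col1a2 with this list, were also all above 0, with a median of 0.44. The shares over all tested genes were 50.3% above 0 and 1.14% called by DESeq2. Col3a1 was at a log2 fold change of 0.64 (SE 0.21, edgeR adjusted p 0.539) and Col5a2 at 0.55 (SE 0.18, edgeR adjusted p 0.561). Of 16 basement membrane genes, 10 were above 0, with a median of 0.11. Col4a3, a collagen IV chain, was lower and called by DESeq2, with FPKM of 35.3, 33.5 and 37.7 in control against 25.3, 23.4 and 25.2 in SRF and a log2 fold change of -0.58 (SE 0.11, edgeR adjusted p 0.244). Fn1, fibronectin, was at 0.55 (SE 0.20, edgeR adjusted p 0.619) and Lamb2, a laminin chain, at 0.34 (SE 0.13, edgeR adjusted p 0.657).

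The AP-1 and ETS family factors, whose letters were searched in the windows above, were listed together with Runx1 and Runx2, which belong to neither. Of 12 tested genes of this list, 4 were above 0 and the median was -0.09, where 50.3% of all tested genes were above 0. DESeq2 called 2 of the 12 (1.14% of all tested genes were called). These were Jund at 1.63 (SE 0.24, edgeR adjusted p 0.198) and Spi1, the myeloid ETS factor PU.1, at 0.88 (SE 0.13, edgeR adjusted p 0.198). Jund FPKM was 13.3, 16.5 and 13.1 in control and 56.8, 49.7 and 30.9 in SRF. This difference was not borne out by the study's qRT-PCR. Fos, the AP-1 partner that responds at once to stimuli, was at -1.32 (SE 0.48, edgeR adjusted p 0.604), opposite to Jund.

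Of 12 tested cytokine and receptor genes known to act on MMP genes, 10 were above 0, with a median of 0.35. Over all tested genes 50.3% were above 0, and DESeq2 called 1.14%. DESeq2 called Csf2ra, a receptor chain for the macrophage growth factor GM-CSF, at 0.95 (SE 0.17, edgeR adjusted p 0.227), with FPKM of 8.18, 7.82 and 6.27 in control and 15.2, 16.0 and 12.5 in SRF. Il4ra, the receptor chain for interleukins 4 and 13, was at 0.53 (SE 0.13, edgeR adjusted p 0.407). As in the other lists, 0 genes were called by edgeR.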

How the data were processed

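Total RNA of RPE-choroid from 3 control and 3 SRF mice was sequenced on an Illumina platform, giving 1 library for each labelled sample. The authors filtered reads with FASTP and counted those mapped to each gene with StringTie, and deposited raw counts. The authors also deposited FPKM values, scaled by gene length and mapped reads. The aligner, genome build and strandedness are not given in the sources used here. Of 15663 gene identifiers, 15659 were found in GENCODE M21 (GRCm38), which gave symbols and positions. The lowest count in any library was 1.

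The test was run on genes exceeding 50 counts in 2 or more libraries, with edgeR 4.0.16 (TMM normalization, glmQLFit and glmQLFTest, group as the only term) in R 4.3.3, with Benjamini-Hochberg adjustment over all tested genes and with calls as defined in the results (adjusted p under 0.05, absolute log2 fold change of 0.5 or more). CPM values are TMM-normalized. Single values were compared by an exact permutation test, two-sided, on log2(FPKM + 0.1). Mmp12 was set against the macrophage markers with the same test on log2 CPM. The p-value of this test cannot go under 0.1. Errors are SDs over 3 libraries. If samples of a group are not separate animals, p-values measure technical spread only. The fits were tested on simulated data. At the depths of these libraries, 3 counts correspond to 0.123 to 0.220 CPM, which covers counting error only.

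Alternatives were DESeq2 1.42.0, limma 3.58.1, other normalizations and filters, a replicate block, a photoreceptor covariate and leaving out libraries. Promoter windows are from RefSeq. The genes named are the 10 members, the other listed MMP genes, from each list up to 3 genes with an unadjusted p under 0.05 and the largest fold change, and the 5 genes nearest to Mmp12. Members and lists were chosen with earlier results of these data known. DESeq2 with left-out libraries, the profile neighbours of Mmp3 and the fibroblast comparison were added after values had been seen.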

Additional observations from a re-analysis of the deposited data

How the results depend on the processing

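Mmp12 kept its direction under every alternative run. Its edgeR log2 fold change of 2.39 missed the threshold and passed it at 2.38 with DESeq2, 2.39 with the newer edgeR form (legacy = FALSE), 2.44 without TMM, 2.39 without a filter on low counts, 2.39 with filterByExpr, 2.38 with limma voom, 2.56 and 2.46 with limma on log2(FPKM + 0.1) and log2(FPKM + 1), 2.39 with the photoreceptor score as covariate and 2.18 without control 1 and SRF 3. It also missed the threshold with RLE normalization (2.39, adjusted p 0.0667). Over single libraries left out it was 2.23 to 2.50, and it missed the threshold in 5 of these 6 fits (adjusted p 0.0870 to 0.484), all but the fit without control 1. The number of genes called was 0 with edgeR on all libraries, 153 with DESeq2, 1 with the newer form, without TMM, without a filter, with filterByExpr, with voom and with the photoreceptor score, 2 with either limma fit on FPKM, 154 without control 1 and SRF 3, and 0 to 5 over single libraries left out. Of these calls, members made up 2 with DESeq2 and 1 in each of the other settings with a call, and 0 to 1 over single libraries left out. DESeq2 called 514 genes without control 1 and SRF 3 and 67 to 361 over single libraries left out, of which 1 to 2 were members. The causes were not tested.

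Mmp3 turned to -0.78 without control 1 and SRF 3, and ranged from -0.31 to 1.96 over single libraries left out. Mmp9 ranged from -0.73 to 0.77 and Mmp19 from -0.17 to 0.20 in the same fits. With 3 libraries in each group, differences of several standard errors were also not called by edgeR, such as that of Mmp14 (0.66, SE 0.17, adjusted p 0.410). Differences well above the standard errors given could thus go unseen.

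The replicate numbers were not treated as pairs in the main fit, and same-numbered libraries had deviations correlated at -0.48, 0.47 and -0.31. These values cannot show whether the samples were paired, since each group had 3 libraries. The deviations of control 1 and SRF 3, the libraries high in photoreceptor markers, correlated at 0.62. Those of control 2 and SRF 1, which were not high in these markers, correlated at 0.61. With the replicate block edgeR called 0 genes and gave Mmp12 a log2 fold change of 2.41 (adjusted p 0.302), while DESeq2 with the block called 201 genes and 3 members, Mmp12, Mmp14 and Mmp3 (adjusted p 0.0327).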
